A study of Homo sapiens with 32 samples.

Results

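The uracil-enriched core shared by 2 unrelated human cell lines without drug treatment is described here. It was selected on measured values: a base belonged to it when it lay inside a region of uracil enrichment in the merged WT, NT_UGI and NT_UGI_MMR files of HCT116 cells and in the file of K562 cells, on chromosomes 1 to 22, and adjacent bases were joined to intervals of 1 kb or more. This gave 34744 intervals of 113 Mb in all, 4.11% of the known autosomal bases. The 22 region files of the series, single-library and merged ones together, held 2640287 regions on these chromosomes. The intervals are intersections of regions and not a subset of them. A region is a stretch in which the smoothed log2 ratio of pulled-down to input DNA exceeded a threshold that the authors set for each file.

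Uracil enters DNA when cytosine is deaminated, which leaves a U:G mismatch, or when dUMP is incorporated in place of dTMP opposite adenine. Uracil-DNA glycosylase removes it and starts base excision repair, and drugs that inhibit thymidylate synthase raise the ratio of dUTP to dTTP so that more dUMP is incorporated. Long AT-rich, gene-poor stretches of the human genome tend to replicate late in S phase and to be packed as heterochromatin.

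HCT116 cells come from a colorectal carcinoma and lack mismatch repair (MMR). A sub-line in which a transferred chromosome 3 restores MMR was used beside them and is called MMR proficient. The WT cells carried no transgene and received no drug. All other HCT116 cells carried UGI, which blocks uracil-DNA glycosylase and was introduced with EGFP by a retrovirus, and were sorted by fluorescence: NT_UGI cells were left without drug, while treatment lasted 48 h with 5-fluoro-2'-deoxyuridine at 20 µM in 5FdUR_UGI cells (5FdUR) and with raltitrexed at 100 nM in RTX_UGI cells (RTX). These 3 conditions were run in the MMR deficient and, with MMR added to the name, in the MMR proficient line. K562 is a chronic myelogenous leukaemia line, here without UGI or drug and with 1 library, so that a feature of K562 and a feature of that library cannot be told apart. Each of the 7 HCT116 conditions had 2 replicate libraries, 14 in all. The 6 non-treated HCT116 libraries were pooled in the merged files and K562 is part of the rule, so values of these libraries are a description of the core. The 8 drug-treated libraries played no part in the rule.

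The sequences at the centres of the core intervals show what the intervals are made of. The central 300 bases of the 3 longest core intervals are printed for GRCh38, with runs of 8 or more bases that hold only A or T in capitals. The central 200 bases of the longest interval called in all 3 merged HCT116 files but not in K562 (HCT116-only) and of the longest interval called in K562 but in none of those files (K562-only) are given for comparison.
Core interval of 43700 bp, chr5:99212601-99212900, plus strand: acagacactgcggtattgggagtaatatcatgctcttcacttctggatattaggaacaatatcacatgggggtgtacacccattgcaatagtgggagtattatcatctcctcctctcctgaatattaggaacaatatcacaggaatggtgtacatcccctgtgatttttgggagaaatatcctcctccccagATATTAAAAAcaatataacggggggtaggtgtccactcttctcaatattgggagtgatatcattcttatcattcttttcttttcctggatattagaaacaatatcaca
Core interval of 27600 bp, chr6:65340151-65340450, plus strand: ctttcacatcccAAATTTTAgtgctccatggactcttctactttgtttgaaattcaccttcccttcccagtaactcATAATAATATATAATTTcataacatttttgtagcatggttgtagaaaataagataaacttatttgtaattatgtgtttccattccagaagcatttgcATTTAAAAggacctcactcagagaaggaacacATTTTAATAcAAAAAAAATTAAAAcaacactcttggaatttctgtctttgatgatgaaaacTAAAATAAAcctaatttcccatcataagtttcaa
Core interval of 27500 bp, chr1:190747901-190748200, plus strand: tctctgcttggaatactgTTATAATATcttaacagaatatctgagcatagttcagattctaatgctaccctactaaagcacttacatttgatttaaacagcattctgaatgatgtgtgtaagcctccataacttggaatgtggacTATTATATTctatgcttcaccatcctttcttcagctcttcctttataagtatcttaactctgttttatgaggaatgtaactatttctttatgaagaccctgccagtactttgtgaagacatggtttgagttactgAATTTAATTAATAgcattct
HCT116-only interval of 20600 bp, chr9:25091301-25091500, plus strand: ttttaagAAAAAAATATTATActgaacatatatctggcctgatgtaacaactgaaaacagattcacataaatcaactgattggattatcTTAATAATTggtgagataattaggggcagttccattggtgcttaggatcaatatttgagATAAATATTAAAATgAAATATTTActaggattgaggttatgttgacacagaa
K562-only interval of 12900 bp, chr9:63665251-63665450, plus strand: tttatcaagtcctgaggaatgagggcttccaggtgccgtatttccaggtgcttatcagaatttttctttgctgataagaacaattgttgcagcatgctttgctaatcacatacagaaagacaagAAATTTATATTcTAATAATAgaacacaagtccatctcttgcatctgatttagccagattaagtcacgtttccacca
The stretch on chromosome 6 had a GC content of 29.7%, no CpG, and 21.7% of its bases in capitals, and that on chromosome 1 had 33.3%, no CpG and 10.3%. The stretch from the longest core interval stood apart, with a GC content of 39.3%, 2 CpG and 3.33% of its bases in capitals.

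In the order in which the files were taken, the narrowing to the core was largest at the second HCT116 condition. The size of a step depends on that order. Leaving out the merged NT_UGI file enlarged the core least, to 128 Mb, against 136 Mb without WT and 133 Mb without NT_UGI_MMR. The merged WT regions covered 310 Mb, of which 69.5% were also in the merged NT_UGI regions, and 79.9% of what remained was also in the merged NT_UGI_MMR regions. Of the 172 Mb called in all 3 merged HCT116 files, 73.7%, 127 Mb, were called in K562 as well, and the minimum length kept 89.4% of these. The core made up 36.6% of the WT, 35.4% of the NT_UGI, 36.5% of the NT_UGI_MMR and 36.7% of the K562 region bases. Of the intersections just outside the minimum length, 2153 were 900 bp long, and 1882 core intervals were 1000 bp long. The HCT116-only set held 15271 intervals of 30.5 Mb, and the K562-only set held 22977 intervals of 43.8 Mb, both with the same minimum length.

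Core intervals were short against the smoothing of the tracks. Their median length was 2500 bp, with 1100 bp at the 10th and 6200 bp at the 90th percentile, whereas the tracks were smoothed over 5 kb. The 6544 intervals of at least 5 kb held 41.4% of the core bases, and 756 intervals reached 10 kb. The HCT116-only and K562-only intervals had a median of 1600 bp each, and 473 and 398 of them reached 5 kb.

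The core was AT-rich and poor in CpG. Its GC content was 32.03%, against 32.97% in the HCT116-only intervals, 36.0% in the K562-only intervals and 41.0% in the known autosomal bases. Over the single intervals the median was 32.1%, with 28.9% at the 5th and 37.4% at the 95th percentile, and 34276 of the 34744 intervals (98.7%) lay below 40%. The dinucleotide CpG, the site of DNA methylation, occurred 4.69 times per kb in the core and 10.1 times per kb in the autosomes, and 115 intervals held none. Its observed count relative to that expected from the C and G content was 0.183 in the core, 0.182 in the HCT116-only intervals, 0.187 in the K562-only intervals and 0.241 in the autosomes. Runs of 8 or more A or T bases took 16.6% of the core bases, 15.5% of the HCT116-only, 11.96% of the K562-only and 8.80% of the autosomal bases. These measures were read from the reference sequence and not from the cells.

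Most of the core was sequence that occurs once. Of 226437 31-base words sampled along the core, 94.3% occurred a single time on either strand of chromosomes 1 to 22, against 93.6% in the HCT116-only intervals, 87.8% in the K562-only intervals and 83.2% in the autosomes. Words with more than 100 copies made up 1.60% of those in the core and 6.65% of those in the autosomes. The authors had removed ambiguously mapped reads, so that stretches of repeated sequence had less chance to be called in any file, and the part of this step in the difference was not tested.

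The GC content dropped sharply around the centres of the core intervals. The fall from 36.3% to 32.2% lay between 3.5 and 2 kb upstream. An interval of the median length of 2500 bp ends nearer to its centre than that, and the tracks were smoothed over 5 kb. The GC content was 36.1% at 5 kb and 36.0% at 10 kb from the centre and 32.1% at the centre. The surroundings were thus also below the autosomal mean of 41.0%. At 10 kb upstream of the centre, 33.4% of the core intervals still had a region in the non-treated HCT116 libraries on average and 32.2% had one in K562. These positions can fall in a neighbouring core interval, and the share that did was not computed. The median gap between neighbours was 13.8 kb, 25.7% of the 34722 gaps were at most 5 kb and 79.6% at most 50 kb.

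Gene bodies and exons were scarcer in the core than in the autosomes. Protein-coding genes of GENCODE covered 32.03% of the core bases and 45.3% of the autosomal bases, and their exons covered 1.89% and 3.79%. Genes of long non-coding RNA covered 21.2% and 18.98%, and 48.3% of the core against 38.4% of the autosomes lay outside every annotated gene. The median distance from a core base to the nearest start of a protein-coding gene was 374 kb, against 89.9 kb for an autosomal base. Of the core bases, 2.78% were within 10 kb of such a start and 41.3% were more than 500 kb from one, where the autosomes had 11.3% and 14.95%. The HCT116-only intervals resembled the core in these respects, with 32.1% in protein-coding genes and a median distance of 356 kb, while the K562-only intervals had 44.3% and 152 kb. These are shares of bases without a test.

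The core followed the AT-rich chromosomes. The highest shares were 8.02% on chromosome 4, 8.01% on chromosome 13 and 5.69% on chromosome 5, and the lowest were 0.355% on chromosome 19, 0.416% on chromosome 22 and 0.731% on chromosome 20. Chromosome 4 alone held 13.4% of the core. Over the 22 autosomes the core share and the GC content had a Pearson correlation of -0.87, and over 2765 windows of 1 Mb the Pearson correlation was -0.61 and the Spearman correlation -0.86. The GC content of a window was read from the reference sequence and its core share from the region files, and these correlations are descriptions without a test. The core was unevenly spread: the 276 windows richest in it held 53.9% of it, 1342 windows (48.5%) held less than 1%, and 602 held none.

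**Figure D1:**
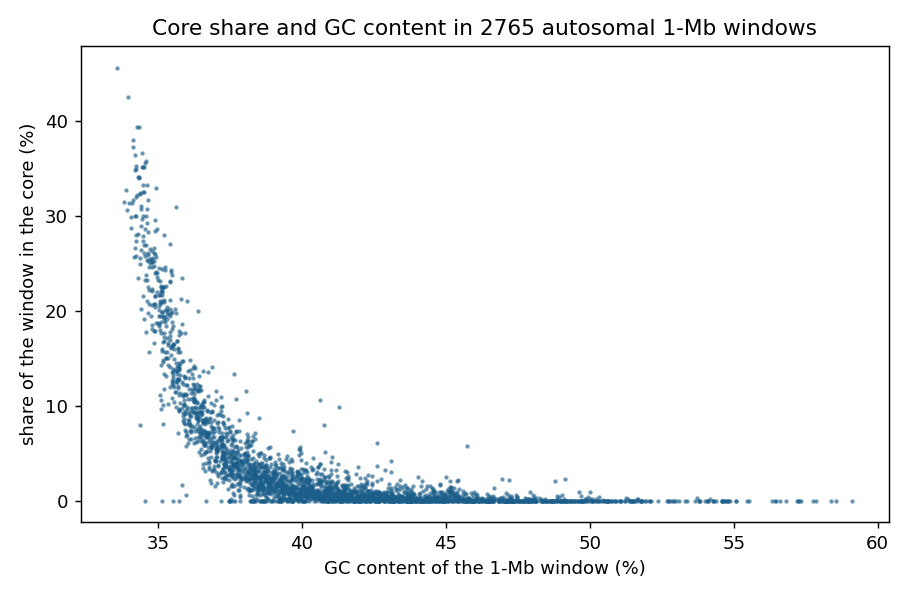
Share of each of 2765 autosomal 1-Mb windows that lies in the core, in percent, against the GC content of the window in percent (1 point per window). The share rises steeply below a GC content of about 38%, and the points at 0 on the left side are the windows of chromosome 9 in which K562 had no region.

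The windows with the most core lay on chromosomes 1, 8 and 2. The window chr1:190000001-191000000 was 45.7% core and held 1 protein-coding gene, BRINP3. Its neighbours chr1:189000001-190000000 and chr1:188000001-189000000 were 42.6% and 39.4% core and held no protein-coding gene. The window chr8:113000001-114000000, which overlaps CSMD3, was 39.4% core, and chr2:184000001-185000000, which holds ZNF804A, was 38.1% core. In the first of these the 6 non-treated libraries had a lowest covered share of 56.3%, a median of 61.4% and a highest of 66.1%, K562 had 67.9%, and the 8 drug-treated libraries had a lowest of 0%, a median of 1.07% and a highest of 15.2%. That window was chosen for its core share and so for high values without drug.

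One stretch of AT-rich sequence was missing from the core. Of the 538 windows with a GC content under 37%, 346 were at least 10% core and 6 were under 1%, and all of these 6 lay between 22 and 31 Mb of chromosome 9. There the bases called in all 3 merged HCT116 files made up 17.6% of the stretch and those of K562 0.663%. The only 6 windows in which K562 was listed at 0 while all 3 merged HCT116 files shared at least 5% of the bases were in the same stretch. On chromosome 9 as a whole, 44.9% of the bases called in all 3 merged HCT116 files were called in K562, against 63.2% to 83.0%, with a median of 74.2%, on the other 21 autosomes. The longest HCT116-only interval, whose centre is printed above, lies in this stretch. The authors had also left out stretches with alignment artefacts, listed separately for each cell line. Neither those lists nor the copy number of the lines was examined here.

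The 10 longest core intervals held few genes. The longest, chr5:99190901-99234600, measured 43700 bp, overlapped no gene of either kind, and lay 262 kb from the start of CHD1, a chromatin remodeller. Its log2 enrichment over input was 0.56 in the WT, 0.70 in the NT_UGI and 0.67 in the NT_UGI_MMR merged file and 0.75 in K562. The next, chr6:65326501-65354100, of 27600 bp, lay in EYS, a gene of the photoreceptor matrix, and overlapped 4 of its exons, with log2 values of 0.53, 0.61, 0.55 and 0.64 in the same order. The remaining 8 overlapped no protein-coding gene, and 4 of these overlapped a gene of long non-coding RNA. Of the 10 intervals, 7 had a GC content of 29.8% to 31.7% and the other 3, on chromosomes 5, 12 and 8, had 41.4%, 39.5% and 41.7%. The interval chr12:79455301-79482700 had the highest log2 values of the 10 in the WT (0.76), NT_UGI (0.95) and NT_UGI_MMR (0.84) files and in K562 (0.81). The interval chr21:9906901-9931400 differed in that 28.3% of its 31-base words occurred once, against 90.4% to 98.1% in the other 9. In the 8 drug-treated libraries the covered share of the longest interval ran from 0% to 94.1%, with a median of 4.92%. The highest share in the other 9 intervals was 48.2%, in chr12:79455301-79482700, where the median was 1.46%.

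Log2 values were higher in longer intervals. The median log2 value of the core intervals was 0.39 in the WT, 0.47 in the NT_UGI, 0.41 in the NT_UGI_MMR and 0.48 in the K562 file, and the medians over all regions of these files were 0.31, 0.37, 0.33 and 0.38. Since each interval lies inside 1 region of each file, it takes that region's value. The base-weighted mean in the WT file was 0.37 for intervals of 1 to under 2 kb and 0.48 for those of 10 kb and over, and in K562 it was 0.45 and 0.58. Across the 34744 intervals the log2 values of WT and NT_UGI had a Pearson correlation of 0.52, and those of the 3 HCT116 files with K562 had 0.25 to 0.29. The rule cuts these values from below in every file, and neighbouring intervals can share a region.

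**Figure D2:**
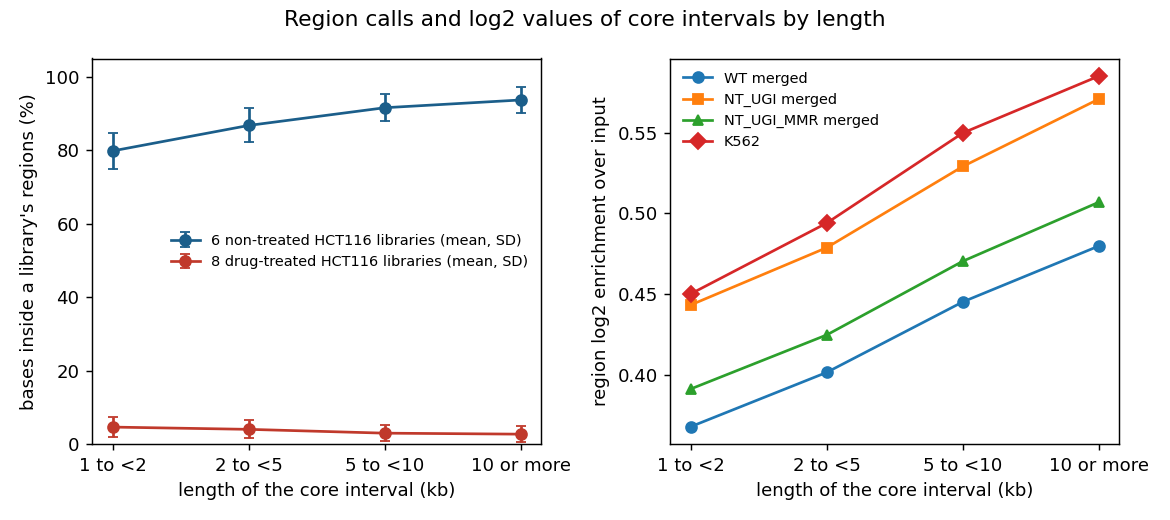
Core intervals by length class. Left, mean and SD over libraries of the percentage of core bases inside a library's own regions, for the 6 non-treated and the 8 drug-treated HCT116 libraries, and right, the base-weighted mean log2 enrichment of the regions in the merged WT, NT_UGI and NT_UGI_MMR files and in K562 (axis starts above 0). Non-treated calls and log2 values rise with length, from 79.8% to 93.7% of the bases.

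The single non-treated replicates covered most of the core, but few intervals were whole in all of them. The covered share of the core was 88.9% and 87.7% in the 2 WT libraries, 92.5% and 80.1% in the NT_UGI libraries, and 90.7% and 87.3% in the NT_UGI_MMR libraries. The second NT_UGI library was the lowest of the 6. These libraries covered 11.3% to 11.6% of the autosomes. Of the 34744 intervals, 1022 (2.94%) lay wholly inside a region of each of the 6 libraries, and 125 were whole in none. Bases in all 6 replicate files and in K562 gave 18162 intervals of 48.0 Mb.

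After drug treatment little of the core was called. The covered share of the core was 0.695% and 3.97% in the 2 5FdUR_UGI libraries, 1.38% and 7.86% in the 5FdUR_UGI_MMR libraries, 4.20% and 3.01% in the RTX_UGI libraries and 5.79% and 2.69% in the RTX_UGI_MMR libraries. The same libraries covered 17.6% to 19.7% of the known autosomal bases, so the core was called less often than the autosomes in all 8 of them. The log2 ratio of the core share to the autosomal share was -2.63 ± 1.13 (SD, n = 8), a 6.20-fold lower share, with an adjusted p of 0.0195 in a two-sided exact sign-flip permutation test (p = 0.00781, the smallest that 8 libraries can give). Against autosomal windows weighted to the GC content of the core the log2 ratio was -0.42, again below 0 in 8 of 8 libraries (adjusted p = 0.0195, exact sign-flip permutation test), so the size of the difference depends on the reference. These libraries were thresholded for a larger total length than the non-treated ones, and each track is scaled to its own genome-wide coverage, so a covered share is relative to the rest of the library. The non-treated libraries chose the core, and no test of drug-treated against non-treated libraries was made.

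After drug the core and the HCT116-only intervals were not told apart by the test. The log2 ratio of the 2 shares was -0.01 ± 0.16 (SD, n = 8), below 0 in 4 libraries and above 0 in 4, and ran from -0.27 to 0.19 (adjusted p = 0.805, exact sign-flip permutation test). With a minimum length of 5 kb for both sets this turned: the core had the higher share, by 1.06 on the log2 scale (adjusted p = 0.0130, exact sign-flip permutation test). The K562-only intervals were called more than the core in 8 of 8 libraries, at 4.19% to 14.1%, and the log2 ratio of core to K562-only was -1.47 ± 0.65 (SD, n = 8, adjusted p = 0.0195, exact sign-flip permutation test). The core is the lower in GC content of this pair, and the part of base composition in it was not tested.

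A difference between the 2 drugs in how much of the core was called was not detectable with 4 libraries each. The log2 ratio of core to autosomal share was -2.94 ± 1.56 (SD, n = 4) after 5FdUR and -2.33 ± 0.53 (SD, n = 4) after RTX, with an adjusted p of 0.679 (exact permutation test, smallest possible p = 0.0286). The 5FdUR libraries, at -4.69 to -1.21, enclosed the RTX libraries, at -2.82 to -1.68. Within the MMR deficient cells the difference of 5FdUR minus RTX was -1.02 and within the MMR proficient cells -0.20, and 2 libraries against 2 cannot give a p under 0.333. The lowest log2 value of a region differed among the 5FdUR libraries, at 0.25 and 0.14 without and 0.20 and 0.13 with MMR, and was 0.25 to 0.27 in the RTX libraries. With a common lower limit of 0.27 all 4 5FdUR libraries covered 0.561% to 0.740% of the core and the 4 RTX libraries 2.53% to 5.79%, and the difference of the log2 ratios was -1.56 (adjusted p = 0.0952, exact permutation test). The same limit lowered the autosomal share of the second 5FdUR_UGI library to 9.85% and of the second 5FdUR_UGI_MMR library to 3.80%, while the RTX libraries stayed at 17.5% to 19.3%. The covered shares of the core did not overlap between the drugs under this limit, but the log2 ratios did, with -2.76 in the second 5FdUR_UGI_MMR and -2.86 in the second RTX_UGI_MMR library.

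MMR status was compared over the same libraries. The log2 ratio of core to autosomal share was -2.35 ± 1.12 (SD, n = 4) in the MMR proficient and -2.91 ± 1.22 (SD, n = 4) in the MMR deficient drug-treated cells (adjusted p = 0.679, exact permutation test). The difference of proficient minus deficient was 0.97 within 5FdUR and 0.15 within RTX. Over both drugs it was 0.56, and it was -0.033 without the first 5FdUR_UGI library, so its direction rested on that library. The libraries were sequenced at either of 2 providers on different instruments, and which library went to which is not given in the sources used here, so that no value within a provider could be computed.

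Around the core intervals the calls of the 2 drugs ran in opposite directions, a pattern described here without a test of its own. After 5FdUR the percentage of intervals inside a region was lower at the centre than 10 kb away in 4 of 4 libraries: 0.809% against 1.95% and 3.76% against 6.51% in the 5FdUR_UGI libraries, and 1.30% against 5.53% and 7.95% against 12.7% in the 5FdUR_UGI_MMR libraries. After RTX it was higher at the centre in 4 of 4: 4.97% against 2.95% and 3.74% against 2.73% in the RTX_UGI libraries, and 6.81% against 4.91% and 3.40% against 2.99% in the RTX_UGI_MMR libraries. In this count each interval weighs the same, and intervals in dense clusters share their surroundings. Where each base was counted once, with the bases 2 to 20 kb from the nearest core base as the flank, the log2 ratio of core to flank was -1.75 ± 0.91 (SD, n = 4) after 5FdUR and -0.47 ± 0.35 (SD, n = 4) after RTX, below 0 in all 8 libraries. The difference between the drugs had p = 0.0286 in an exact permutation test, the smallest possible, and was added after the profile had been seen, so that it is not adjusted. It did not pass 0.05 with a flank weighted to the GC content of the core (difference -0.87, exact permutation p = 0.0571). The flank had a GC content of 37.7%.

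Of the 34744 core intervals, 22025 (63.4%) held no base of a region in any of the 8 drug-treated libraries. Another 11351 were touched in 1 to 3 libraries and 1368 in 4 or more. The regions of each of these libraries covered 17.6% to 19.7% of the known autosomal bases. No such counts are given here for other intervals of the same lengths, so the counts in this paragraph describe the core alone. The intervals that were at least 50% covered in 4 or more libraries numbered 710, with a GC content of 33.8% and 6.57 CpG per kb, against 32.01% and 4.59 in the intervals without a call. Whole intervals were called most in the first RTX_UGI_MMR library, with 1336, and least in the first 5FdUR_UGI_MMR library, with 154. At least 50% of the length was called in all 8 libraries in 9 intervals, none of which overlapped a protein-coding gene. Of these 9, 8 had a GC content of 39.2% to 46.3%, and chr1:58728001-58732500 had 27.9%. By length, the drug-treated libraries covered 4.67% ± 2.63 (SD, n = 8) of the bases of intervals of 1 to under 2 kb and 2.74% ± 2.18 (SD, n = 8) of those of 10 kb and over.

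The core touched a minority of the protein-coding genes. Of 19103 autosomal protein-coding genes, 2647 held some core and 745 (3.9%) had at least 10% of their length in it. These 745 genes had a median GC content of 35.5% and a median length of 65.6 kb, against 45.3% and 27.9 kb over all genes. The most core bases lay in PCDH15, a cadherin of the hair-cell tip link, with 533 kb or 29.2% of the gene. EYS, of the photoreceptor matrix, had 500 kb or 25.2%, and CSMD3, a large transmembrane protein with CUB and sushi domains, had 499 kb or 41.1%. The synaptic adhesion gene CADM2 followed with 339 kb, LRP1B of the LDL receptor family with 321 kb, CCSER1 with 319 kb, the type II cadherin gene CDH18 with 294 kb, the glutamate receptor gene GRIK2 with 270 kb, and MGAT4C, of a glycosyltransferase family, with 257 kb.

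In these genes the drug-treated libraries had few calls. PCDH15 was inside regions over 47.0% to 51.7% of its length in the 6 non-treated libraries, with a median of 48.4%, and over 55.1% in K562. In the 8 drug-treated libraries the share ran from 0% to 2.51%, with a median of 0.0931%. CSMD3 had a lowest share of 61.7%, a median of 63.7% and a highest of 68.4% in the non-treated and at most 0.601% in the drug-treated libraries. GRIK2 had the highest drug-treated median of the 10 genes, with 36.7% to 45.1% in the non-treated libraries and 0.197% to 21.9%, median 3.49%, in the drug-treated ones. These 3 genes were chosen for their core bases and so for high values without drug.

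Among genes of at least 100 kb, the highest share of the length in the core was in COL11A1, a fibrillar collagen gene, with 52.3%. EPHA7, an ephrin receptor gene, had 50.4%, CALCRL, the calcitonin receptor-like receptor gene, 48.0%, BRINP3 also 48.0%, TECRL 46.6%, NOVA1, a neuronal splicing regulator gene, 46.0%, TRIQK 41.7%, CDH19 41.6%, CSMD3 41.1% and NCAM2, a neural cell adhesion gene, 39.6%. COL11A1 was inside regions over 61.6% to 74.5% of its length in the non-treated libraries, 67.3% in K562 and at most 4.08% in the drug-treated libraries.

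The gene groups differed widely in their share of genes with at least 10% in the core, which was 3.9% over all genes. Among the 3506 genes of at least 100 kb, 291 had that much, and the groups also differ in gene length. Among the type II cadherins, calcium-dependent cell adhesion proteins, 6 of 13 genes passed, with a median of 7.11% of the length in the core where the median over all genes was 0%. CDH19 had 41.6%, CDH10 37.3%, CDH9 37.2% and CDH18 26.6%. Of the non-clustered protocadherins, 4 of 9 passed, led by PCDH10 with 51.8% and PCDH17 with 49.4%, followed by PCDH9 with 17.98% and PCDH7 with 14.4%. Of the synaptic adhesion genes of the SLITRK and LRRTM families 3 of 8 passed, with 58.5% in SLITRK5, 37.4% in SLITRK6 and 21.4% in LRRTM4. Of the contactins and their CNTNAP partners 3 of 11 passed, with the highest share, 17.7%, in CNTN5.

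Receptor genes of inhibitory and excitatory synapses followed. Of the GABA-A receptor subunits 6 of 16 passed, with 38.2% in GABRG1 and 21.3% in GABRA2, and of the ionotropic glutamate receptors 4 of 17 passed, with 26.3% in GRIA2 and 24.1% in GRIK2. Of 14 genes at common fragile sites 5 passed and 13 held some core, with a median of 6.16%. Of the UGT2 glucuronosyltransferases, which conjugate steroids and drugs and lie in a cluster on chromosome 4, all 10 held some core and 7 passed, with a median of 20.3%. UGT2B10 had 79.2% of its length in the core, UGT2B11 48.0%, UGT2A3 26.99% and UGT2B28 24.4%. These gene families are clustered or similar in sequence, so their members are not independent.

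Groups of small clustered genes were split. Of 414 olfactory receptor genes 55 held some core and 47 (11.4%) passed, and among these OR13C3, OR13C5, OR5J2 and OR5K4 lay wholly in it. Of 40 beta-defensin genes, of innate immunity, 4 passed, and DEFB114 lay wholly in the core. Of 24 bitter taste receptor genes 1 passed, TAS2R14 with 16.5%. Of 496 ZNF genes 13 (2.62%) passed, led by ZNF804A with 38.3%.

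The remaining groups, of general cell function and of the tissues of origin, had no gene with 10% of its length in the core. With 3.9% of all genes past that share, counts of 0 in groups this small lie close to the background. Any core was held by 2647 of 19103 genes, and on this measure the 80 ribosomal protein genes, with 0, lay below all genes. The ribosomal protein and HOX genes are also short, with median lengths of 5548 bp and 4216 bp against 27877 bp over all genes. No group was tested against all genes. None of the 80 ribosomal protein genes, none of the 39 HOX genes and none of the 20 genes of uracil repair and thymidylate metabolism, such as UNG, TYMS, DUT and TDG, held a base of the core. Of the 8 mismatch repair genes MSH3 held 4.10% and EXO1 2.12% of its length, and the other 6 none. None of 20 erythroid genes chosen for K562 had 10% of its length in the core, and of 20 colon epithelial genes chosen for HCT116, TSPAN8 alone held some core, 2.02%. The median GC content of these 6 groups was 41.6% to 54.2%. The expression of these genes in the 2 lines was not examined.

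Few promoters lay in the core. Of 20584 RefSeq promoter windows of autosomal protein-coding genes, from 250 bases before to 50 after the start, 101 (0.491%) lay wholly inside a core interval. Their mean GC content was 37.2%, against 61.1% over all of these windows, and their median number of CpG was 1 against 21. The letters TATAAA occurred on either strand in 38.6% of the 101 and in 9.50% of all. The part of the lower GC content in this difference was not tested. Of the 101, 18 belonged to olfactory receptor genes, 3 to beta-defensin genes, 1 to the type II cadherin CDH19 and 1 to SLITRK6. The windows of these last genes are printed from RefSeq (GRCh38.p14), with runs of 8 or more A or T bases in capitals.
CDH19 promoter window, chr18:66604041-66604340, minus strand: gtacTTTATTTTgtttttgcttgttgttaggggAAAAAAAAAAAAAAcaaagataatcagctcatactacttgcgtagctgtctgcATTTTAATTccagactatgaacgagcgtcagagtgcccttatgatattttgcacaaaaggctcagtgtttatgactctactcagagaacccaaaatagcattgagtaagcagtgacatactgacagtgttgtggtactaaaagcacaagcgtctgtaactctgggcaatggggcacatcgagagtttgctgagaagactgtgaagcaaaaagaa
SLITRK6 promoter window, chr13:85799370-85799669, minus strand: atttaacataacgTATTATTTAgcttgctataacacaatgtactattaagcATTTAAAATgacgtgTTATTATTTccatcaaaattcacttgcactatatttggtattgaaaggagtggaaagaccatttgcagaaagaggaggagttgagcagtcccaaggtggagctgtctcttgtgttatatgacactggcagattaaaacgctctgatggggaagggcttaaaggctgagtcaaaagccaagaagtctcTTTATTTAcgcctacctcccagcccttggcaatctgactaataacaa
The CDH19 window had a GC content of 39.3% with 5 CpG, and the SLITRK6 window had 38.7% with 4 CpG. Neither held TATAAA. Of 1461 autosomal RefSeq miRNA hairpins 22 (1.51%) lay wholly in the core.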

How the data were processed

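U-DNA-Seq enriches uracil-containing DNA fragments with a catalytically inactive uracil-DNA glycosylase sensor and sequences them beside input DNA. Per the submitters' processing notes, BWA 0.7.17-r1194, SAMtools 1.9-50, Picard and deepTools 3.2.1 were used with GRCh38. The authors deposited regions with their log2 ratio of enriched over input coverage, smoothed over 5 kb in 100-bp bins, above a threshold set for each file. The 22 region files comprise 15 of single libraries and 7 merged ones, read as the authors' pooled regions. They carry no read depth, so no counting intervals were computed. Input, mock and coverage files were not used here.

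The core and the gene lists were chosen with earlier results of these data known. Files were intersected on chromosomes 1 to 22, and annotation came from GENCODE release 44. Named items were the 10 longest intervals, the 10 genes with most core bases, the 10 with the highest share among genes of at least 100 kb, 5 windows, 3 chromosomes at either end and up to 4 members per gene list, and 2 genes that these rules name are not reported here. Comparisons over the 8 drug-treated libraries used two-sided exact sign-flip tests or exact permutation tests, with Benjamini-Hochberg adjustment over 5 tests. The tests treat the libraries as independent, and were tested on simulated data. Alternatives changed the minimum length, the files in the rule, the log2 limit, the reference, the gene share and the libraries left out. Python 3.11.15, NumPy 2.4.6, pandas 2.3.3, SciPy 1.17.1 and Matplotlib 3.10.9 were used.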

Additional observations from a re-analysis of the deposited data

Results flagged for a closer look

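The percentage of core intervals called at their centre relative to 10 kb away had a mean log2 ratio of -1.21 after 5FdUR and 0.47 after RTX, a difference of -1.67. All 4 5FdUR libraries lay below 0 and all 4 RTX libraries above it, and this difference was not tested. When each base was counted once instead of each interval, the RTX libraries also lay below 0. The reference in that count was the flank 2 to 20 kb from the nearest core base, so weighting and reference both changed. Which of these turned the direction after RTX was not tested. With the flank weighted to the GC content of the core, the first RTX_UGI library lay at 0.16 and the other RTX libraries lay below 0.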

How the results depend on the processing

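The lower core share than the autosomal share after drug kept its direction in 19 alternatives (-3.17 to -0.42), as did the core against K562-only difference in 17 (-1.85 to -1.27). The lowest value of each came from the merged drug files, which allow no test, and the adjusted p of the others ran from 0.0130 to 0.0391 in both (exact sign-flip permutation test). Leaving out single libraries gave -2.83 to -2.34 and -1.58 to -1.32. Core against HCT116-only turned to 0.058 at a 2 kb minimum, 1.06 at 5 kb and 0.18 with all 6 replicate files, and ran from -0.042 to 0.023 without single libraries, with 0.00486, 0.0234 and 0.00796 above 0. The 5FdUR minus RTX difference ran from -1.19 to -0.025 and the MMR difference from -0.033 to 1.01 without single libraries, the -0.033 being without the first 5FdUR_UGI library. With the replicate number as a block the values were -0.61 (adjusted p = 0.694, exact permutation test) and 0.56 (adjusted p = 0.694, exact permutation test), and no call changed. The labels do not say what a replicate number shares. Core size was 46.8 Mb at 5 kb and 48.0 Mb with all 6 replicate files, with 232 and 235 genes at 10% or more. Of all 19103 genes, a share of 5% gave 1322 and 20% gave 317. Of the 3506 genes of at least 100 kb, 291 had 10% or more. The GC content was 32.1% at 500 bp, 31.8% at 2 kb, 31.6% at 5 kb, 31.4% with all 6 replicate files, and 32.3%, 32.2% and 32.2% without the WT, NT_UGI or NT_UGI_MMR file. The difference between the drugs in core against flank, chosen after seeing the data, was -1.18 with a flank of 5 to 50 kb (exact permutation p = 0.143) and -0.87 with the GC-weighted flank (exact permutation p = 0.0571). With the replicate block it was unchanged at -1.27, and its exact permutation p of 0.0556 is the smallest that the 36 blocked arrangements can give, so that this fit could not pass 0.05. It ran from -1.54 to -0.98 without single libraries, with exact permutation p up to 0.114, above 0.05 without the first 5FdUR_UGI_MMR library or any 1 RTX library. Causes were not tested. Region files carry no depth, and intervals of 1 kb are shorter than the smoothing.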
